A study of Mus musculus with 4 samples.

Results

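The OAS family is the group of 2′-5′-oligoadenylate synthetases and their relatives, here the mouse genes Oas1a, Oas1b, Oas1c, Oas1d, Oas1g, Oas2, Oas3, Oasl1 and Oasl2. The 9 members were taken by gene symbol, and 8 of them had at least 1 array probe whose RefSeq accession named the gene, among 21367 genes named on the arrays in all. No probe was matched to Oas1b, which the gene table lists as a transcribed pseudogene, so it has no value here. The data are single-colour Agilent Mouse 8x60K expression arrays of cultured vascular smooth muscle cells from the aortas of C57BL/6J mice, used at passages 12 to 16. The study compared cells lacking LAMP-2A, the lysosomal receptor of chaperone-mediated autophagy, with wild-type cells, each with and without LDL.

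Each of 4 groups was 1 array. L2AKO LDL cells (genotype LAMP-2AKO) and WT LDL cells (wild type) received LDL at 150 µg/ml cholesterol together with bovine lipoprotein lipase at 0.1 U/ml for 24 h. L2AKO control and WT control cells spent the same 24 h without LDL, and the sources used here do not say if lipase was added to them. All 4 groups were kept in DMEM with 5% lipoprotein-deficient serum (LPDS). Per the labels, cells were isolated from 5 aortas and triplicate RNA was pooled before hybridisation, so the spread between animals or cultures cannot be seen. With 1 array a group there is no replicate error, no test and no p-value for any difference below.

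OAS enzymes are sensors of double-stranded RNA. When bound to it they join ATP into short oligoadenylates with an unusual linkage, which act as a second messenger in the defence against viruses. Interferon raises the mRNA of most OAS genes in most cell types, which has made them standard readouts of an interferon response. In the mouse the Oas1 gene has been duplicated many times, and only some of the copies, Oas1a and Oas1g among them, are known to be active synthetases. Oas1b is known for a truncating change in many laboratory strains that goes with susceptibility to flaviviruses. Oas1d is known from mouse oocytes and lacks synthetase activity. Oas2 and Oas3 carry repeated synthetase units. Oasl1 and Oasl2 end in ubiquitin-like domains. Mouse Oasl2 is an active synthetase, whereas mouse Oasl1 is not and is known to restrain translation of Irf7, the transcription factor that amplifies interferon production.

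Promoter windows show what the members do and do not share next to their start sites. RefSeq windows of assembly GRCm38.p6, from 250 bases before to 50 bases after a start, were at hand for 6 of the 9 members (Oas1a, Oas1c, Oas1g, Oas3, Oasl1 and Oasl2). They were searched on both strands for GAAANNGAAA, the core of the interferon-stimulated response element, and overlapping matches were counted. Of these 6 windows, 4 held a match, as did 1131 of 32851 windows of 300 bases over all genes (3.44%). Among other interferon stimulated genes, listed further on, 9 of 21 windows held one. The windows are shown 5′ to 3′ on the gene's strand, with the matches in capitals. Oas1a and Oas1g are set together because their windows are nearly alike, Oas1c and Oas3 because they hold the motif elsewhere, and Oasl2 as a window without it.
Oas1a: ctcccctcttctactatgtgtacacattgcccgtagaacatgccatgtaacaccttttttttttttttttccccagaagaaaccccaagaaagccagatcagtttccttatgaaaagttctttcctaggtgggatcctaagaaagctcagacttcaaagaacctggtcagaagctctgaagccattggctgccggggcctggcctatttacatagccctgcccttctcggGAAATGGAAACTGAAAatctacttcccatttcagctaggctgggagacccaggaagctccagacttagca
Oas1g: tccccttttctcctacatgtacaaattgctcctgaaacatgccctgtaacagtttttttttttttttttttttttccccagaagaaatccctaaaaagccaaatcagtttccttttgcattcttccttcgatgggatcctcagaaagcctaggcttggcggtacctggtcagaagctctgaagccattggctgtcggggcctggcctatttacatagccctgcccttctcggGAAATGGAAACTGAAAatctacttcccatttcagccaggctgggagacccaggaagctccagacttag
Oas1c: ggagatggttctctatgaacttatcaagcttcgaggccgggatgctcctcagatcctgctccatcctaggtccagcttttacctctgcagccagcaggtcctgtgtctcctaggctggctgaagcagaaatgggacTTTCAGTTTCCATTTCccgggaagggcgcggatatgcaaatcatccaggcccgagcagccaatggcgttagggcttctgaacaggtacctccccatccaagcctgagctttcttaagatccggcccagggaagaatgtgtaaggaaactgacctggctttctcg
Oas3: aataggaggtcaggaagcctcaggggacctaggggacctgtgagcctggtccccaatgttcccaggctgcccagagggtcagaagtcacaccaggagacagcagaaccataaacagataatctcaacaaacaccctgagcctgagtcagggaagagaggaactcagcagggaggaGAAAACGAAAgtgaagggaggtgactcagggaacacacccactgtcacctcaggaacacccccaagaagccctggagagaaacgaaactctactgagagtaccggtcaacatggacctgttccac
Oasl2: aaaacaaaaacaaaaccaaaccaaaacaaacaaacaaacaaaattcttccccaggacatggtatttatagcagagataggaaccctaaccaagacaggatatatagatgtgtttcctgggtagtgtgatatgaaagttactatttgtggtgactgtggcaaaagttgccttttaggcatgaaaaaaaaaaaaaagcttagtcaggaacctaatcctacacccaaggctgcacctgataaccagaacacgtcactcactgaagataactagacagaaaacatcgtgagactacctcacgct

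The Oas1a window (chr5:120907476-120907775, minus strand) held 2 overlapping matches, with first bases 20 and 14 bases before the start. The Oas1g window (chr5:120887564-120887863, minus strand) held the same run of letters at 18 and 12 bases before the start, and 261 of 306 aligned columns (85.3%) were identical to Oas1a. In the Oas1c window (chr5:120812465-120812764, minus strand) 2 overlapping matches lay on the opposite strand, with first bases 114 and 108 bases before the start. The Oas3 window (chr5:120777610-120777909, minus strand) held 1 match, 75 bases before the start. The windows of Oasl2 (chr5:114896684-114896983, plus strand) and Oasl1 (chr5:114922990-114923289, plus strand) held none, which says only that these letters are not in these 300 bases. Every pair of windows other than Oas1a with Oas1g shared 43.1% to 48.5% of aligned columns. A match is a run of letters and not a measured binding site.

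Values below are normalised log2 signals, that is, the log2 of the scanner software's background-subtracted spot signal minus the array's 75th percentile of that quantity. A level compares 1 probe across arrays and not 1 probe with another, and sums over cell markers, given as signal over the 75th percentile, are likewise read across arrays only. Each difference carries in brackets the SD that the scanner software's own error estimate gives, which covers the reading of single spots only. On each array 399 probes were printed up to 10 times, and repeated spots above background scattered with a median SD of 0.054 or less. A probe counts as measured where the software marked it well above background on every array compared. The lowest such level was -5.08 on the L2AKO LDL array, -4.45 on L2AKO control, -4.40 on WT LDL and -4.23 on WT control. No probe was saturated. In bulk RNA, fewer cells of a type and less RNA per cell cannot be told apart.

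The L2AKO LDL array stood apart from the rest. It lay on a second slide and was scanned apart from the other 3, so slide and group cannot be told apart for it. On it 7 of 8 spike-in controls were beyond the span of the remaining arrays, at -1.17 to 0.63 log2 units from their mean, where that span was at most 0.505. Only the control at 0.63 lay above the span, and the rest of the 7 lay below it. Those below stood at -0.99 to -0.41 from their level on L2AKO control. The part of this shift in the L2AKO LDL responses below was not tested. Its 75th percentile of signal was 433.8, against 389.4, 370.6 and 318.8 on L2AKO control, WT LDL and WT control. The response of L2AKO cells to LDL, the genotype difference with LDL and the difference of the LDL responses all rest on this array. The response of WT cells to LDL and the genotype difference without LDL do not.

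The genotype and the cell type were checked on the same arrays. One Lamp2 probe read 2.41 and 2.30 in L2AKO LDL and L2AKO control cells, against 3.74 and 3.68 in WT LDL and WT control cells, while another read 6.09, 6.33, 6.38 and 6.29 in these groups. The sources used here do not tell which Lamp2 transcripts each probe detects. Of 6 smooth muscle markers 4 (Acta2, Tagln, Cnn1 and Smtn) were well above background on all arrays, whereas Myh11 and Myocd, which define the contractile state, were not above it on any. Of 5 macrophage markers Cd68, Csf1r and Itgam were above background on all arrays, and Adgre1 and Ptprc on none. Of 4 endothelial markers Pecam1 and Kdr were above it on all arrays, and Cdh5 and Tie1 on none.

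Oas1a, an active synthetase of the mouse, spanned 5.98 log2 units over the arrays, the widest range of the members above background on all 4. Its brighter probe read 2.34 in L2AKO LDL, 3.31 in L2AKO control, -2.67 in WT LDL and 0.48 in WT control cells. As background-subtracted signals, the same spots gave 2200, 3867, 58.1 and 444.0. Both L2AKO arrays were thus above both WT arrays, and within each genotype the array with LDL was the lower one. The LDL response of Oas1a, LDL minus control, was -0.97 in L2AKO cells (scanner SD 0.20) and -3.15 in WT cells (scanner SD 0.23, 8.88-fold lower). L2AKO cells exceeded WT cells by 5.02 with LDL (32.3-fold) and by 2.83 without LDL (7.13-fold). With normexp background correction the WT response was -2.25 and the genotype difference with LDL 4.04, both smaller by more than 1.5 times as folds. A dimmer Oas1a probe gave the same order, at 0.63 in L2AKO LDL, 1.17 in L2AKO control and -1.81 in WT control cells, and was not well above background in WT LDL cells. For that probe the WT response to LDL was at least 6.01-fold lower and the genotype difference with LDL at least 32.6-fold. Because of the duplications a probe for 1 Oas1 copy may bind others, and the probe sequences were not used here, so values of the Oas1 genes may be mixed.

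Oas2, with its repeated synthetase units, followed the same order where it could be read. Its probe read -0.60 in L2AKO LDL, 0.34 in L2AKO control and -2.30 in WT control cells, and was not well above background in WT LDL cells. Its LDL response was -0.94 in L2AKO cells (scanner SD 0.20). In WT cells it was at least 4.29-fold lower with LDL. L2AKO cells exceeded WT cells by at least 3.80 with LDL and by 2.64 without LDL (6.23-fold), the last being 1.88 with normexp correction. A bound of this kind sets the bright array against the lowest level well above background on the dim array.

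Oasl2, the active member of the Oasl pair, was lower with LDL in both genotypes, by more in WT cells. It read 0.94 in L2AKO LDL, 1.97 in L2AKO control, -1.67 in WT LDL and 1.51 in WT control cells. The WT LDL array was the low one, and the L2AKO LDL array lay between it and the arrays without LDL. The LDL response of Oasl2 was -1.03 in L2AKO cells (scanner SD 0.20) and -3.18 in WT cells (scanner SD 0.21, 9.08-fold lower), and L2AKO exceeded WT by 2.62 with LDL and by 0.46 without it. Among 12978 genes measured in WT cells with and without LDL, Oasl2 had the 7th lowest response and Oas1a the 8th lowest.

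Oasl1, the restrainer of Irf7, went with LDL and hardly with genotype. It read -3.55 in L2AKO LDL, -2.36 in L2AKO control, -3.36 in WT LDL and -2.04 in WT control cells. Both arrays with LDL were below both arrays without it. The LDL response of Oasl1 was -1.19 in L2AKO cells (scanner SD 0.24) and -1.32 in WT cells (scanner SD 0.26). With normexp correction these values were -0.59 and -0.73, within 2-fold. The genotype differences were -0.18 with LDL (scanner SD 0.27) and -0.32 without LDL (scanner SD 0.23), and under some other settings the value with LDL took the opposite sign. The responses of the 2 genotypes differed by 0.13 (scanner SD 0.35), within the error of reading the spots.

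Oas1c, a further Oas1 copy, varied mainly with genotype. It read 1.64 in L2AKO LDL, 1.74 in L2AKO control, 0.17 in WT LDL and 0.71 in WT control cells. L2AKO exceeded WT by 1.47 with LDL (2.76-fold) and by 1.02 without LDL (2.03-fold). Its LDL response was -0.10 in L2AKO cells (scanner SD 0.20), a value that changed sign between settings, and -0.54 in WT cells (scanner SD 0.20).

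Oas1d, the oocyte gene without synthetase activity, ran against the other members in the LDL response of L2AKO cells. It read -1.17 in L2AKO LDL, -3.46 in L2AKO control, -3.50 in WT LDL and -3.11 in WT control cells. The L2AKO LDL array alone was high, and the other 3 followed at gaps of 0.34 (scanner SD 0.32) and 0.04 (scanner SD 0.33). With LDL, Oas1d was 2.28 higher in L2AKO cells (scanner SD 0.28, 4.87-fold) and stood at -0.38 in WT cells (scanner SD 0.31). It was the 4th highest response among 13008 genes in L2AKO cells. The size of this response depended on the background correction, since it was 1.18 with normexp correction and 1.39 in the authors' deposited values. The authors' deposited values for this probe were 200.1 in L2AKO LDL, 76.1 in L2AKO control, 68.25 in WT LDL and 78.1 in WT control cells. This value rests on 1 probe and on the array of the second slide. Of 4 plasmacytoid and lymphoid markers with a probe, 3 were above background on every array. Their summed signal over the 75th percentile, mostly Siglech, was 146.2 in L2AKO LDL, 87.1 in L2AKO control, 74.0 in WT LDL and 81.9 in WT control cells. Among them the LDL response in L2AKO cells was 1.01 for Siglech, 0.41 for Cd3e and -0.86 for Bst2, which is also an interferon stimulated gene. The part of these markers in the Oas1d value was not tested.

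Oas1g and Oas3 could not be read. Neither of the 2 Oas1g probes was well above background on any array, at levels from -7.40 to -6.27. The single Oas3 probe was not above background either, at -5.68 in L2AKO LDL, -5.58 in L2AKO control, -4.54 in WT LDL and -6.23 in WT control cells. No difference is given for these 2 genes. Oas1a and Oas1g thus have nearly the same promoter window, while the probes of Oas1g were above background on no array.

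**Figure D1:**
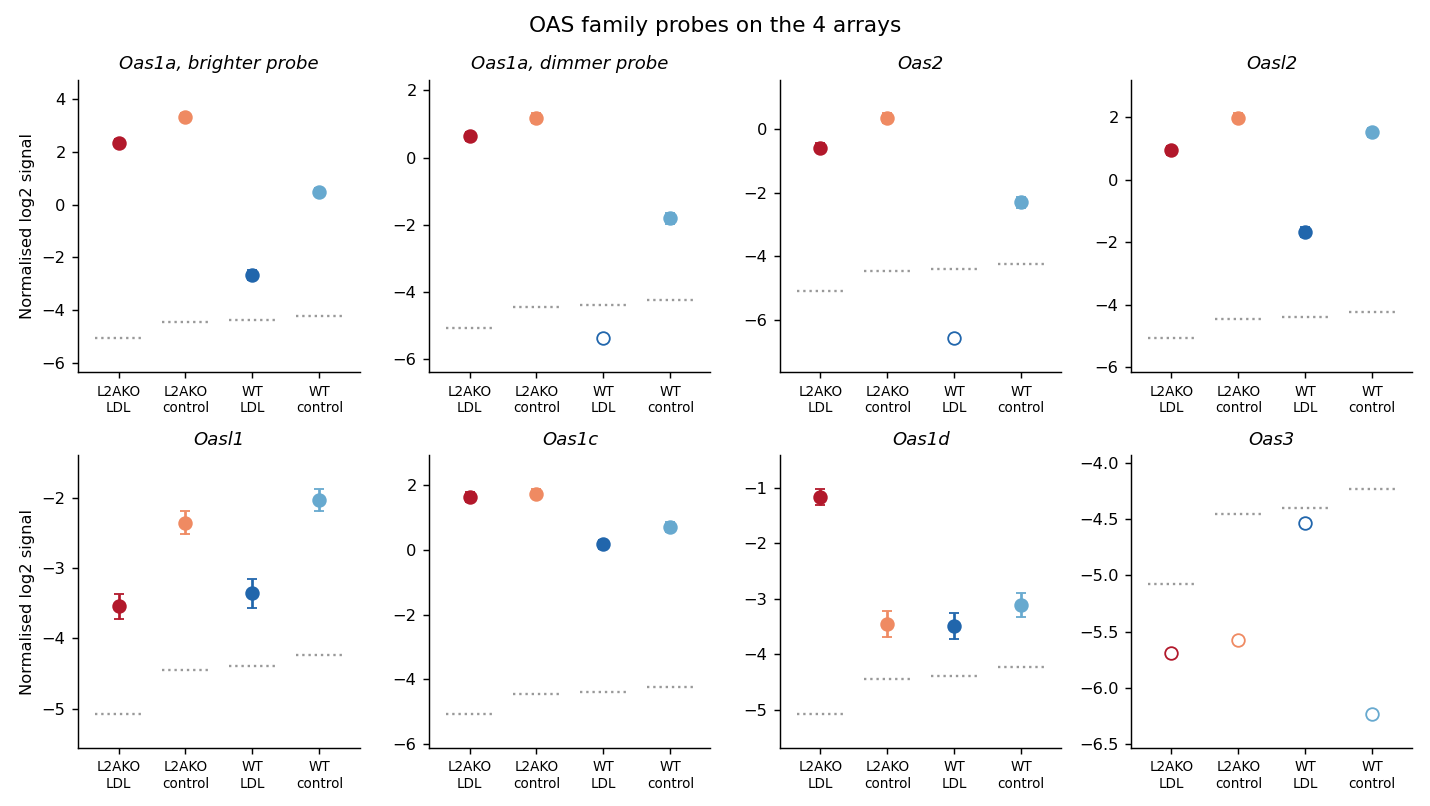
Normalised log2 signal (vertical axis) of each OAS family probe other than those of Oas1g in L2AKO LDL, L2AKO control, WT LDL and WT control cells, 1 array each, with a separate scale for each panel. Filled points were well above background and open points were not, bars are the scanner software's SD for a filled point, and dotted lines mark the lowest level well above background on each array. Oas1a and Oas2 are higher on both L2AKO arrays, Oasl1 is lower on both LDL arrays (-3.55 and -3.36), and Oas1d is high on the L2AKO LDL array alone (-1.17).

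In the response of L2AKO cells to LDL, 6 of the 9 members were measured. At a threshold of 2-fold, 1 was higher (Oas1d) and 2 were lower (Oasl1 and Oasl2), with a median of -0.95. Over all 13008 genes measured there, 0.93% were higher and 1.33% lower by that much, 2.26% in all, with a median of -0.08. Oas1a (1.96-fold lower), Oas2 (1.91-fold lower), Oasl2 (2.04-fold lower) and Oasl1 (2.28-fold lower) lay on either side of the threshold by less than their scanner SD.

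In the response of WT cells to LDL, 5 members were measured, none was 2-fold higher and 3 were 2-fold lower (Oas1a, Oasl1 and Oasl2), with a median of -1.32. Over all 12978 genes, 0.247% were higher and 1.02% lower, 1.27% in all, with a median of -0.05. Oas2, below background on the WT LDL array, adds a bound of at least 4.29-fold lower outside this count.

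**Figure D2:**
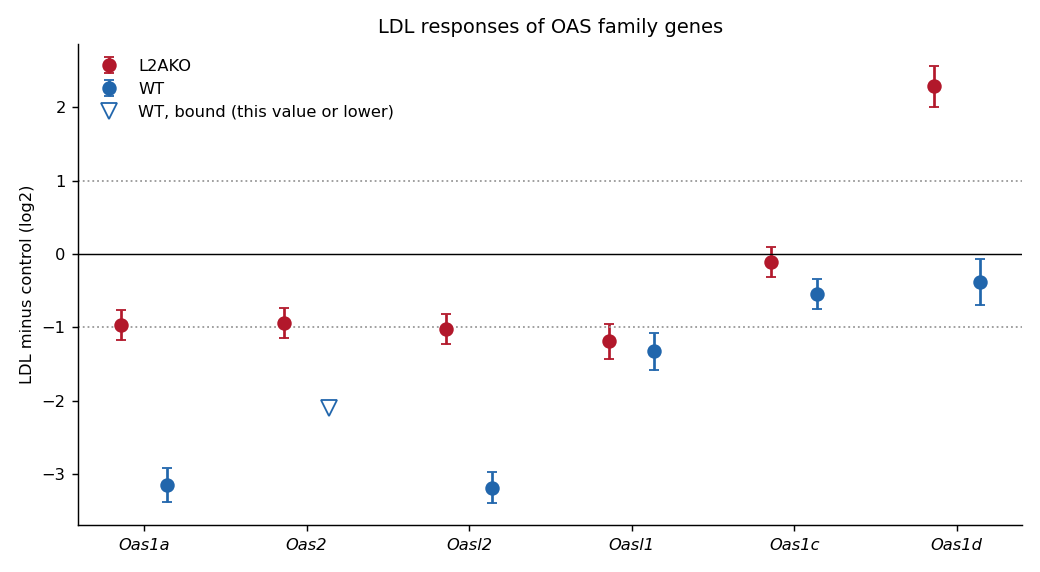
LDL minus control (log2, vertical axis) for the OAS genes with a readable response, in L2AKO cells (left point of each pair) and in WT cells (right point), 1 array per group. Bars are the scanner software's SD, dotted lines mark 2-fold, and the open triangle is the bound for Oas2 in WT cells. Oas1a and Oasl2 lie near -1 in L2AKO cells and near -3.2 in WT cells, Oasl1 lies between -1.32 and -1.19 in both, and Oas1d lies at 2.28 in L2AKO cells.

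Between the genotypes with LDL, 5 members were measured. L2AKO was at least 2-fold higher for 4 of them (Oas1a, Oas1c, Oas1d and Oasl2) and at least 2-fold lower for none, with a median of 2.32. This comparison moved many genes, since 8.29% of 12936 were higher and 10.4% lower, 18.7% in all, with a median of -0.05. Oas1a had the 8th highest difference of those genes. Without LDL, 3 of 6 measured members were 2-fold higher in L2AKO (Oas1a, Oas1c and Oas2) and none lower, with a median of 0.74. There 7.56% of 12594 genes were higher and 8.21% lower, 15.8% in all, with a median of -0.01. The 2 genotype comparisons use different arrays, and Oas1a and Oas1c were 2-fold higher in L2AKO in both.

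Fibroblast markers differed between the genotypes too, in both directions. Their summed signal over the 75th percentile was 128.9 in L2AKO LDL and 137.8 in L2AKO control cells, against 15.9 in WT LDL and 18.8 in WT control cells. On the L2AKO arrays that sum was mostly Serpinf1, which read 6.91 in L2AKO LDL and 6.98 in L2AKO control cells, against 2.41 in WT LDL and 2.70 in WT control cells. Within that list Serpinf1 (4.49 higher with LDL, 4.28 without) and Pi16 (4.85 and 4.14) were higher in L2AKO, Lum stood at -1.01 and -1.03, and Pdgfra at -1.14 and -0.61. Dpt was above background in L2AKO LDL cells only, at -4.05. The sum of the smooth muscle markers was 136.0 in L2AKO LDL and 140.8 in L2AKO control cells, against 175.6 in WT LDL and 199.2 in WT control cells. This sum was mostly Acta2 on every array. Its members went both ways, with Tagln (1.46 with LDL, 1.27 without) and Cnn1 (1.04 and 1.11) higher in L2AKO, Acta2 at -0.66 and -0.75 and Smtn at -0.66 and -0.995. Of the 3 macrophage markers measured, Cd68 was higher in L2AKO by 1.79 with LDL and by 1.85 without it. Csf1r stood at 0.31 with LDL and 0.52 without it, and Itgam at 0.83 and -0.16. The macrophage sum was 48.0 in L2AKO LDL and 30.2 in L2AKO control cells, against 27.0 in WT LDL and 30.7 in WT control cells. On every array it was mostly Itgam. In the LDL response of L2AKO cells Itgam stood at 0.80, Cd68 at -0.25 and Csf1r at -0.34. The part of these shifts in the OAS genotype differences was not tested.

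The difference of the LDL responses, that of L2AKO minus that of WT, was measured for 5 members and was at least 2-fold above 0 for 3 (Oas1a, Oas1d and Oasl2) and below 0 by that much for none, with a median of 2.16. Over 12492 genes 1.39% lay above and 0.72% below, 2.11% in all, with a median of -0.03. It was 2.18 for Oas1a (scanner SD 0.31), 2.16 for Oasl2 (scanner SD 0.29) and 2.67 for Oas1d (scanner SD 0.42). With normexp correction it was 1.41, 1.64 and 1.33 for these 3 genes. These 3 values have unlike origins. For Oas1a and Oasl2 the WT value with LDL was lower by more than the L2AKO value, whereas for Oas1d the L2AKO value was higher. For Oas2 the difference was 1.16 or more.

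Other Oas1 copies outside the 9 members lie in the same cluster. Oas1f read 1.65 in L2AKO LDL, 2.15 in L2AKO control, -2.63 in WT LDL and -0.55 in WT control cells, in the order of Oas1a. Oas1e read -1.98, -1.92, -3.19 and -2.88 in the same groups, in that order too, which Oas1c also had. The gap between the L2AKO arrays was within the scanner SD for Oas1e (0.06, scanner SD 0.22) and Oas1c (0.10, scanner SD 0.20). Oas1h was not above background on any array. L2AKO exceeded WT in Oas1f by 4.28 with LDL and by 2.71 without it, and in Oas1e by 1.21 and 0.96.

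Likeness of pattern was measured as the root mean square difference of the 4 levels after each gene's own mean was subtracted, in log2 units over 4 arrays, where 0 is an identical pattern. Among all 12491 other genes above background on every array, Oas1f was the nearest to Oas1a (0.47). Outside the family, the nearest of 12485 genes to Oas1a were Gng13 (0.65), Ccl8 (0.65) and Steap4 (0.69). The nearest to Oasl2 were Rtp4 (0.16), Zbp1 (0.26) and Isg15 (0.30), all known as interferon stimulated genes. Oasl1 had other company. Its nearest were Fasn (0.08), the fatty acid synthase, Scd2 (0.12), a stearoyl-CoA desaturase, and Acly (0.14), the ATP citrate lyase, and Oasl2 was at 1.11 from it. The nearest to Oas1c were Smim1 (0.01), Parp10 (0.06) and Map2k7 (0.06), with Oas1e at 0.12. The nearest to Oas1d were 4933405E24Rik (0.18), the RNA sensor Tlr7 (0.20) and the olfactory receptor gene Olfr297 (0.21). Distances over 4 arrays are a description and carry no test.

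All measured OAS genes lie on chromosome 5, in a cluster that the gene table orders as Oas2, Oas3, Oas1e, Oas1c, Oas1b, Oas1f, Oas1h, Oas1g, Oas1a and Oas1d, and apart from it in the pair Oasl2 and Oasl1. The readable genes of the cluster are interleaved with Oas3, Oas1h and Oas1g, which were not above background. Of the 12 protein-coding genes that flank the cluster and the pair, 3 on each side, 6 were measured in every comparison and none was 2-fold apart in any. Their genotype differences lay between -0.65 and 0.94 with LDL and between -0.55 and 0.44 without LDL. Their LDL responses lay between -0.24 and 0.47 in L2AKO cells and between -0.25 and 0.12 in WT cells. Only Ptpn11 and Rpl6 of them flank the cluster, both on the Oas1d side, and the rest flank the pair. Cfap73, Rasal1 and Dtx1, on the Oas2 side, were above background on no array. Over all genes, 18.7% were 2-fold apart between genotypes with LDL and 15.8% without it. The shares were 2.26% and 1.27% in the L2AKO and WT LDL responses and 2.11% in their difference.

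**Figure D3:**
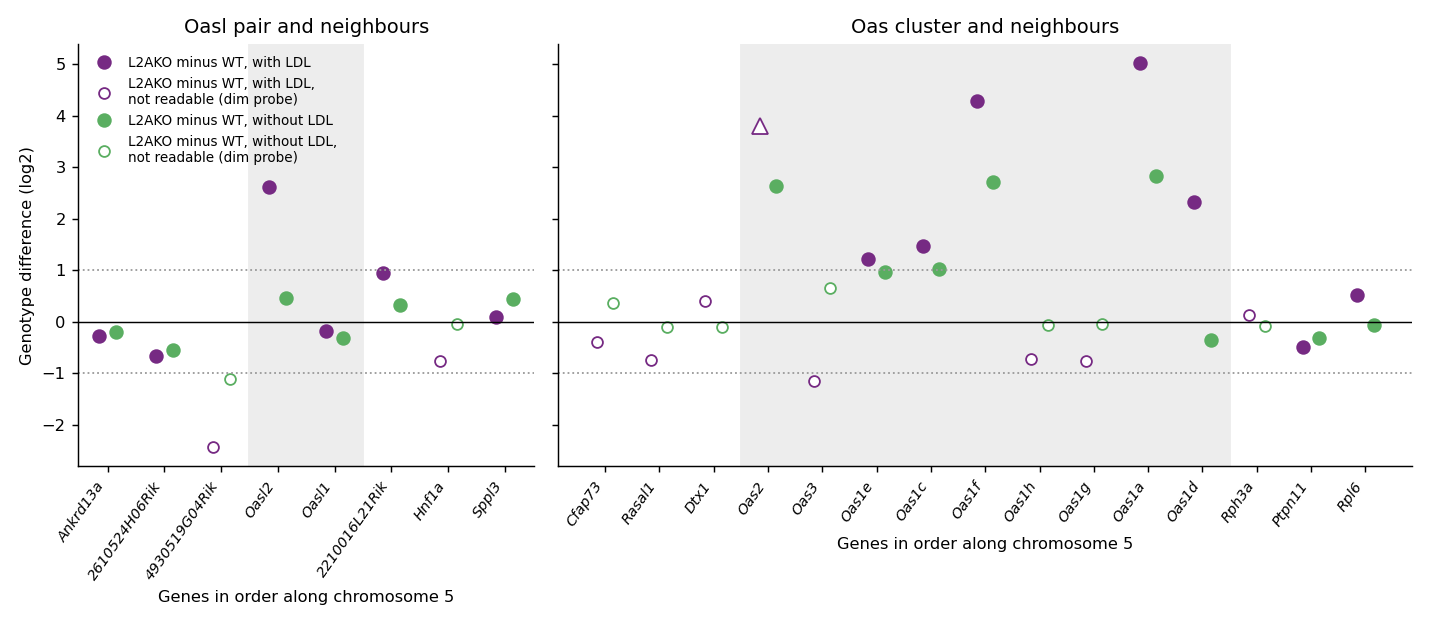
Genotype difference (L2AKO minus WT, log2, vertical axis) of OAS genes (shaded) and of the 3 protein-coding genes on either side, in their order along chromosome 5 and not to scale. Purple is with LDL and green without LDL, open circles had a probe not above background on at least 1 of the arrays compared and carry no readable difference, the triangle is the lower bound for Oas2 (3.80), and dotted lines mark 2-fold. Oas1a (5.02 and 2.83) and Oas1f (4.28 and 2.71) stand high. The measured flanking genes, of which only Ptpn11 and Rpl6 flank the cluster, lie between -0.65 and 0.94.

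Sensors that, like the OAS proteins, detect nucleic acid formed a list of 11 genes, all measured. In the LDL response of L2AKO cells Tlr7 (1.83) was 2-fold higher and Zbp1 (-1.59) 2-fold lower, with Dhx58 at -0.79 (median -0.26). In WT cells Dhx58 (-2.65) and Zbp1 (-3.13) were 2-fold lower, with Tlr7 at -0.58, and none was higher (median -0.55). The difference of the responses was 2-fold above 0 for 3 of the 11, at 1.86 for Dhx58, 1.54 for Zbp1 and 2.40 for Tlr7. Cgas, the DNA sensor, had genotype differences of -1.82 with LDL and -1.64 without it, and LDL responses of -0.26 in L2AKO and -0.09 in WT cells. The sensors Ifih1 (-0.68 in L2AKO, -0.55 in WT) and Ddx58 (-0.32 and -0.74) stayed within 2-fold.

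Interferons and their receptors made a list of 14 genes, 13 of them with a probe. Ifna1 (-3.98 in L2AKO LDL, -3.73 in L2AKO control, -3.66 in WT LDL and -3.58 in WT control cells) and Ifnl3 (-2.68, -2.34, -2.21 and -2.40) were above background on all arrays and Ifna2 on both LDL arrays, all at low levels, and the interferon alpha genes are close copies that probes may not tell apart. Ifnb1, Ifna4, Ifnk and Ifng were not above background on any array. In the LDL responses 8 were measured and none was 2-fold apart in either genotype, with medians of -0.40 in L2AKO and -0.11 in WT cells. The receptor genes Ifnar1 and Ifnar2 responded by -0.53 and -0.79 in L2AKO cells and by -0.13 and -0.26 in WT cells. In the genotype differences only Ifngr1, a receptor chain for interferon gamma, was 2-fold apart, at -1.16 with LDL.

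Genes that carry the interferon signal made a list of 12. In L2AKO cells none of the 11 measured was 2-fold apart with LDL, with Irf7 at -0.70, Stat2 at -0.91 and Irf9 at -0.55 (median -0.39). In WT cells 3 of 10 were 2-fold lower with LDL, Irf7 at -2.09, Stat2 at -1.47 and Irf9 at -1.10 (median -0.29). Without LDL the genotypes were alike for these 3 genes, at -0.03, 0.05 and 0.03. Of 6 brakes on the pathway, Usp18, which binds the interferon receptor, had LDL responses of -0.99 in L2AKO cells and -3.36 in WT cells, and the other 5 stayed within 2-fold in every comparison.

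Interferon stimulated genes outside the OAS family made a list of 22, of which 20 had a probe. With LDL, 3 of 16 measured were 2-fold lower in L2AKO cells (Isg15, Ifit1 and Rtp4; median -0.54) and 8 of 17 in WT cells (median -0.999), and none of those measured was 2-fold higher in either. Genes dim on 1 side stand outside these counts. Ddx60 was above background only with LDL, at -4.97 in L2AKO and -2.69 in WT cells. Cxcl10 was not above background in L2AKO LDL cells and read -2.39 in L2AKO control, -1.51 in WT LDL and -0.05 in WT control cells. It stands outside the L2AKO count only, and was 1 of the 8 lower in WT cells, at -1.46. Ifi44 was above background only without LDL, at -4.13 in L2AKO and -2.36 in WT cells, and Rsad2 only in WT control cells, at -3.38. Isg15, a ubiquitin-like modifier, read 2.04 in L2AKO LDL, 3.06 in L2AKO control, -0.01 in WT LDL and 3.21 in WT control cells. L2AKO exceeded WT at least 2-fold in 7 of 17 with LDL, where Ddx60 was lower (median 0.76). Without LDL it did so in 1 of 18, Gbp2, an interferon-induced GTPase, at 1.85, while Ifi44 (-1.78) and the chemokine gene Cxcl10 (-2.34) were lower (median -0.00). Without LDL, then, L2AKO exceeded WT by 2.83 in Oas1a and by 2.64 in Oas2, against 0.46 in Oasl2 and -0.15 in Isg15. In that comparison 3 of 6 measured members (Oas1a, Oas1c and Oas2), 1 of 2 other Oas1 genes (Oas1f) and Gbp2 were 2-fold higher in L2AKO. Of the sensors (11 measured), interferons and receptors (8), signalling genes (11) and brakes (6), none was. Over all 12594 genes measured there, 7.56% were. Whether the family differs from the lists was not tested.

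**Figure D4:**
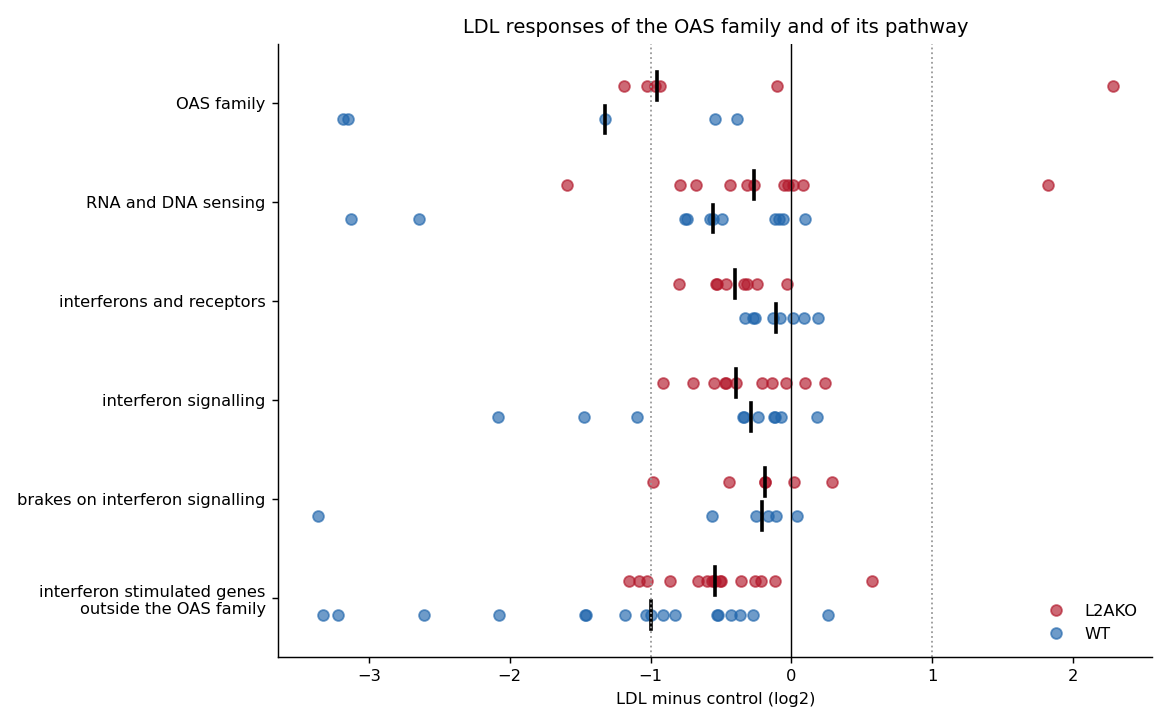
LDL minus control (log2, horizontal axis) for each measured gene of the OAS family and of 5 pathway lists, with L2AKO cells in the upper row and WT cells in the lower row of each list. Each point is a gene, black bars are medians and dotted lines mark 2-fold. The OAS family has medians of -0.95 in L2AKO and -1.32 in WT cells, the interferon stimulated genes outside it -0.54 and -0.999, and the interferons and receptors -0.40 and -0.11. The family medians are over 6 members in L2AKO and 5 in WT cells, where Oas2 has only a bound. Those of the interferon stimulated genes are over 16 and 17.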

How the data were processed

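RNA from 4 groups of cultured mouse aortic smooth muscle cells was hybridised to 4 arrays, 1 pooled sample each. The deposited scanner files hold a linear spot intensity for 62976 spots an array, from which Agilent's Feature Extraction software (version 10.7.3.1) had taken off the background, per the file headers. A value table deposited by the authors, used as an alternative, also holds a linear intensity, with column medians of 57.4, 57.5, 57.6 and 57.6 for L2AKO LDL, L2AKO control, WT LDL and WT control. It follows the raw median signal, and how its arrays were scaled to each other is unknown. RMA and oligo are named in the submitters' processing notes, without versions.

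Control spots and outlier flags were left out, log2 values were averaged over a probe's spots (55679 probes), and each array's 75th percentile was subtracted. Probes were named through their RefSeq accession in the gene table of assembly GRCm38.p6, which matched 28330 probes. The files name build mm9, so coordinates are given only for the RefSeq promoter windows. A gene is represented by the probe of highest mean level, and is measured where that probe is well above background on every array compared.

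There were 5 comparisons and no tests. The text names all 9 members, genes of 6 pathway lists, 3 genes of like pattern for each member above background on all arrays, and flanking genes, some of the list genes after their values were seen. Members and lists were chosen with earlier results of these data known. Of 5 lists of cell markers, the macrophage list, mostly through Itgam, summed to 27.0 to 48.0 times the 75th percentile over the arrays. The endothelial list summed to 4.30 to 5.55. Alternatives were 4 other scalings, normexp background correction of the median signal (offset 50) with quantile normalisation, the deposited values, other filters, the mean over probes and thresholds of 1.5-fold and 4-fold. Some listed genes are not reported here. The steps were tested on simulated data. Software was limma 3.58.1 under R 4.3.3, and Biopython 1.88, matplotlib 3.10.9, pandas 2.3.3 and numpy 2.4.6 under Python 3.11.15.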

Additional observations from a re-analysis of the deposited data

Results flagged for a closer look

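Oas1d had values of opposite sign in the genotypes and in the treatments. Its LDL response was 2.28 in L2AKO cells and -0.38 in WT cells on the log2 scale, and its genotype difference was 2.32 with LDL and -0.34 without LDL. The 2 values near 0 were close to the scanner software's SD for them (0.31 and 0.32). The difference was not tested, since each group is 1 array. Every high value comes from the L2AKO LDL array, the one on the second slide.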

How the results depend on the processing

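Of 27 member differences 16 were at least 2-fold, and all 16 kept their direction under 7 other settings of scaling, background correction, probe choice or source. Of these, 12 also stayed past 2-fold in all 7. The mean over probes, 1 of the 7, changed only the Oas1a values of the L2AKO LDL response and of the genotype difference without LDL. For every other member difference it repeated the main value. The sizes of the 16 differences did not all hold, and normexp correction gave the smaller values. For Oas1d the L2AKO LDL response was 1.18 to 2.44, the genotype difference with LDL 1.26 to 2.55 and the difference of responses 1.33 to 2.77. For Oas1a the WT LDL response was -3.18 to -2.25 and the genotype difference with LDL 4.04 to 5.24, and for Oas2 the genotype difference without LDL was 1.88 to 2.93. Those that did not stay past 2-fold were the L2AKO LDL responses of Oasl1 (-1.19 to -0.59) and Oasl2 (-1.03 to -0.87, past 2-fold in 2 of 7), the WT LDL response of Oasl1 (-1.38 to -0.73) and the genotype difference of Oas1c without LDL (0.98 to 1.31). For Oasl2, 1 of those 2 settings was the mean over probes, which repeats its main value of -1.03. The L2AKO LDL response had 3 members 2-fold apart, against 1 with normexp, 5 at 1.5-fold and 1 at 4-fold. Over all genes the share was 2.26%, against 0.938% with normexp, 7.89% at 1.5-fold and 0.315% at 4-fold. Without a filter on dim probes, the WT response and the difference of responses had 5 each, against 3 and 3. The shares over all genes were then 6.35% and 12.1%, against 1.27% and 2.11%. Over all genes, normexp left 122, 92 and 90 genes 2-fold apart in the L2AKO response, the WT response and their difference, the deposited values 145, 95 and 116, and no filter 1600, 1357 and 2575, against 294, 165 and 264. Under median scaling the median of all genes was 0.03 in the L2AKO LDL response and 0.15 in the genotype difference with LDL, against -0.08 and -0.05, and 55.7% and 60.0% of called genes were higher, against 41.2% and 44.4%. With no scaling 42.6% and 68.9% were higher in the WT response and in the genotype difference without LDL, against 19.4% and 47.9%. The cause was not tested. No array could be left out with 1 a group, and no paired analysis was possible because each group is 1 array.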
